A study of Mus musculus with 14 samples.

Results

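The data described here are the RNA-seq libraries of wild-type mouse embryonic stem (ES) cells at the start of mTOR inhibition (mTORi) and after 24 h of it. They were chosen by their source labels, and they are 4 of the 14 RNA-seq libraries of the series: 2 of untreated cells (0 h) and 2 of cells kept for 24 h with the mTOR inhibitor INK128. All 4 come from E14 cells, an ES cell line grown here without feeders in serum and leukaemia inhibitory factor (LIF), with no edited allele, and the inhibitor is the only named difference between the groups. The study followed these cells to 72 and 144 h, as a culture model of the dormancy that embryos enter in diapause, and treated a *Tet1/2* double knockout (DKO) line for up to 72 h beside them. That line was made in E14 cells with Cas9 and is a single edited line, so a difference between the genotypes cannot be told apart from a difference between lines. *Tet2* was at 53.9 and 52.7 spike-in normalized TPM in the DKO libraries at 0 h, below the 210.4 and 203 of wild type. *Tet1* was at 427 and 349 in the DKO libraries and at 416 and 403 in wild type, so its RNA summed over the gene did not mark the libraries labelled DKO. The study established both knockouts by PCR and by western blot of the proteins, which such a sum does not measure.

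mTOR is the kinase through which cells match growth to amino acids, insulin and energy. In its complex mTORC1 it promotes translation, ribosome production and the synthesis of lipids and nucleotides, and it keeps transcription factors of the lysosome, such as TFE3, out of the nucleus, while mTORC2 acts on AKT and through it on the FOXO factors. INK128 blocks the kinase itself and thus both complexes, and mouse ES cells and blastocysts kept under such inhibitors stop growing yet stay pluripotent.

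The deposited values are TPM, transcript abundances scaled to a fixed total per library, summed here per gene. A fall in all RNA would leave such values unmoved. Levels are therefore given as spike-in normalized TPM, in which each library is multiplied by a factor that the study took from ERCC RNA added to the extracts, and plain TPM are given where they alter a direction or a call. Differences are log2 fold changes of level plus 1, 24 h minus 0 h, and a gene is called higher or lower where its Benjamini-Hochberg adjusted p over all genes tested is under 0.05 in limma. TPM keep no read counts, so the depth of the libraries is unknown and no counting interval can be given. In RNA from bulk samples, here of sorted cells, fewer cells of a type and less RNA per cell cannot be told apart.

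After 24 h many more genes were lower than higher per unit of spike-in RNA. The average gene stood at 38.8 spike-in normalized TPM in each 0 h library, compared with 26.3 and 34.0 after treatment, a ratio of 0.779 that restates the library factors and was not tested. Of 18232 genes tested, 227 were called higher (1.25%) and 1592 lower (8.73%), and the middle gene had a log2 fold change of -0.33. The 24 h libraries differed from each other by a median of 0.37 on the log2 scale, with replicate 2 above replicate 1, so the shift of all genes was no larger than the spread between replicates. On plain TPM the median was -0.01 and the split turned to 2883 higher (15.8%) and 2563 lower (14.1%). The time points of a replicate were processed in parallel, and a fit with the replicate as a block gave 817 higher (4.48%) and 4693 lower (25.7%).

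**Figure D1:**
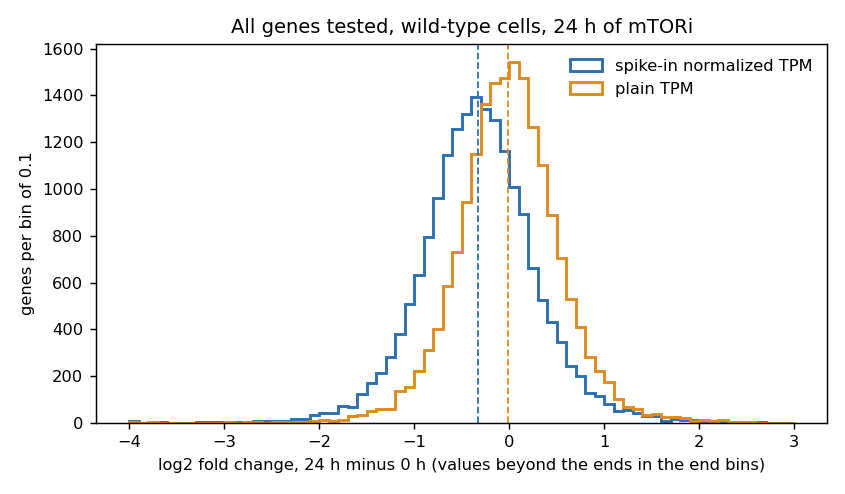
Number of genes (vertical axis, per bin of 0.1) by log2 fold change between 0 h and 24 h (horizontal axis) for the 18232 genes tested, in spike-in normalized and plain TPM; dashed lines mark the medians, -0.33 and -0.01. The 2 curves have a like shape and differ by a shift along the horizontal axis.

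Most genes called were called on both scales. All 227 genes called higher were also called higher on plain TPM and with the replicate block, and of the 1592 called lower 1472 were called lower on plain TPM and all 1592 with the block. The groups did not overlap for any of these genes, against 2205 (12.1%) of all genes tested whose 24 h libraries both lay above the 0 h libraries and 8709 (47.8%) whose 24 h libraries both lay below. The median log2 fold change was 1.42 over the genes called higher and -1.27 over those called lower. Protein-coding genes made up 195 of the former and 1280 of the latter. Of the 127 genes called that are named here, 55 kept the call whichever of the 4 libraries was left out, while 12 lost it each time: *Bad*, *Bak1*, *Birc5*, *Bmf*, *Dnmt3b*, *Foxo4*, *Ier3*, *Kdelr3*, *Rpl36al*, *Tars*, *Txnip* and *Wipi1*.

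Genes that rose and genes that fell were at different levels later on. These comparisons share the 0 h libraries, so the values are set side by side only. Of the 227 genes called higher at 24 h, 51 were called higher against 0 h at 72 h and 21 at 144 h, while 38 were called lower at 144 h, and the median of their log2 fold changes went from 1.42 to 0.61 and then -0.04. The 1592 genes called lower had medians of -1.27, -1.0 and -1.44 in the same order. Both sets were picked by their 24 h values. The average gene stood at 38.8 spike-in normalized TPM in each 0 h library, at 30.3 and 27.4 at 72 h and at 19.7 and 18.4 at 144 h.

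**Figure D2:**
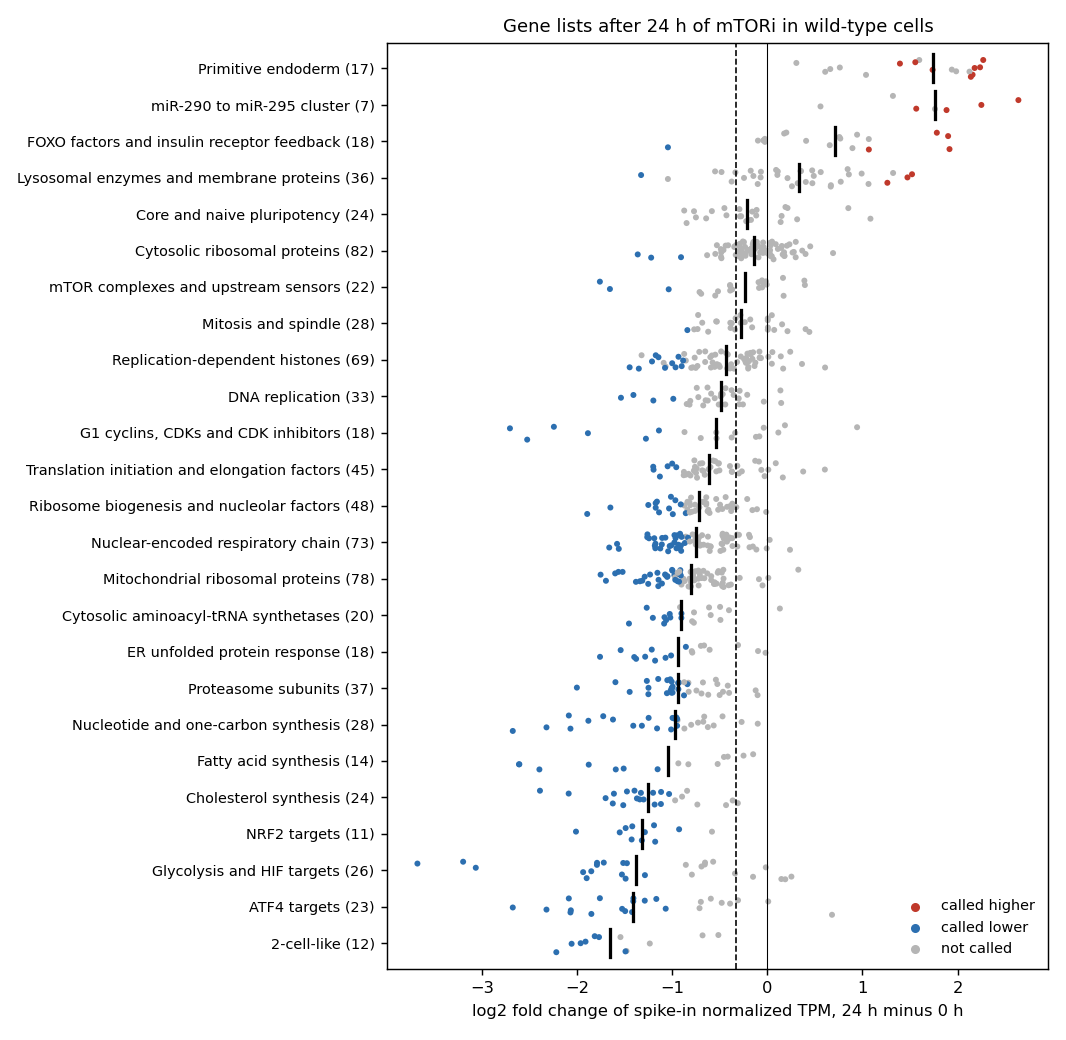
Log2 fold change of spike-in normalized TPM between 0 h and 24 h (horizontal axis) of the members of 25 gene lists, with the number tested in brackets; points are genes, coloured by call, black bars list medians and the dashed line the median of all genes, -0.33. Primitive endoderm genes and the miR-290 cluster lie furthest to the right, with medians of 1.74 and 1.76, and ATF4 targets and glycolytic genes far to the left, with medians of -1.41 and -1.38.

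The RNA of the mTOR kinase itself was not called on the spike-in scale. Genes of its complexes and upstream sensors ranged from -1.76 to 0.40 on the log2 scale. *Mtor*, which encodes the kinase, was at 59.9 and 59.3 spike-in normalized TPM at 0 h and at 62.9 and 71.9 at 24 h, or 0.17 ± 0.29 on the log2 scale (SE, adjusted p = 0.74). Of 22 genes of the complexes and their upstream sensors, none was called higher and 3 lower, with a median of -0.23 that turned to 0.13 on plain TPM. The 3 are 13.6% of the list, against 8.73% of all genes called lower. *Eif4ebp1*, the translation repressor that mTORC1 inactivates, fell from 305 and 292 to 123 and 170.4 spike-in normalized TPM. *Ddit4*, an inhibitor of mTORC1 induced by stress, fell from 37.8 and 88.1 to 10.6 and 24.9, and *Castor1*, the arginine sensor, from 48.2 and 72.6 to 16.9 and 19.5. Their log2 fold changes were -1.04, -1.76 and -1.65. The groups did not overlap for any of them, as in this direction for 47.8% of all genes tested. On plain TPM 6 of the 22 genes were called higher, *Mtor* among them at 0.53, and with the replicate block 5 were called lower.

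Genes of insulin receptor feedback and FOXO targets lay above most other genes. Of 18 such genes, 4 were called higher and 1 lower (median 0.71), with 11 called higher on plain TPM and 10 with the replicate block. *Irs2*, the adaptor that couples the insulin receptor to PI3 kinase, was at 11.3 in each 0 h library and at 37.9 and 44.9 spike-in normalized TPM at 24 h (log2 fold change 1.78 ± 0.32, SE, adjusted p = 0.0022). *Klhl24*, a ubiquitin ligase adaptor, went from 22.1 and 30.4 to 82.4 and 121, and *Crebrf*, a regulator of the response to nutrient shortage, from 14.9 and 19.5 to 55.0 and 81.8. *Txnip*, which restrains glucose uptake, rose from 179 and 211 to 374 and 448. In all 4 both 24 h libraries lay above both at 0 h, as in 12.1% of all genes tested. *Foxo4*, a FOXO factor itself, fell by 1.04 on the log2 scale, from 73.1 in each 0 h library to 33.2 and 36.8. After 24, 72 and 144 h, *Klhl24* had log2 fold changes of 1.90, 1.63 and 1.13 against the shared 0 h libraries, *Crebrf* of 1.92, 1.70 and 1.03, and *Irs2* of 1.78, 0.64 and 0.06.

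Lysosomal genes lay above the other genes, although few passed the test. Of 36 genes for lysosomal enzymes and membrane proteins 3 were called higher and 1 lower, with a median of 0.33 against -0.33 for all genes. Here the scale decided most calls, as 24 of the 36 were called higher on plain TPM, and 11 with the replicate block. *Ctsa*, which encodes the protective protein cathepsin A, rose from 36.1 and 49.1 to 87.1 and 162 spike-in normalized TPM (log2 fold change 1.47 ± 0.36, SE, adjusted p = 0.014). *Grn*, the precursor of the granulins that support lysosomal enzymes, went from 63.7 and 70.5 to 127 and 207, and *Hexa*, a subunit of β-hexosaminidase, from 23.1 and 28.4 to 45.0 and 126. Replicate 2 was the higher of the 24 h libraries for all 3, and both 24 h libraries lay above both at 0 h, as in 12.1% of all genes tested. With 1 library left out, the calls of *Grn* and *Hexa* ended in 3 of the 4 cases and that of *Ctsa* in 2. *Gusb*, the lysosomal β-glucuronidase, fell by 1.33 on the log2 scale. *Lamp1* and *Ctsd*, a major membrane protein and a protease of the lysosome, were not called, at 0.41 and 0.49, but were called higher on plain TPM, at 0.78 and 0.86.

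Among the regulators of this programme, *Tfe3* was at 83.0 and 99.8 spike-in normalized TPM at 0 h and 58.8 and 73.8 at 24 h, and *Mcoln1*, the lysosomal calcium channel, at 31.5 and 32.3 and then 51.9 and 88.2 (log2 fold change 1.06, adjusted p = 0.059). None of the 11 genes tested of the TFE3 and folliculin axis was called, while on plain TPM 4 were called higher and 1 lower. *Mcoln1* and *Fnip1*, a partner of folliculin, were called higher with the replicate block. Of 28 autophagy genes 2 were called higher (7.14%, against 1.25% of all genes) and 4 lower (14.3%, against 8.73%), with a median of -0.13. On plain TPM 10 were called higher and 5 lower (median 0.22). *Wipi1*, which binds the forming autophagosome, rose from 3.42 and 3.31 to 10.9 and 11.3, and *Calcoco1*, an autophagy receptor for the endoplasmic reticulum (ER), from 55.5 and 48.0 to 109.9 and 156. *Calcoco2*, the receptor for invading bacteria, fell from 429.6 and 557 to 83.1 and 188 and went on from a log2 fold change of -1.96 at 24 h to -4.27 at 72 h and -5.93 at 144 h.

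TFE3 and related factors bind a motif with the core GTCACGTG, which was searched for on both strands of the 250 bases before each start site in the RefSeq annotation of GRCm38.p6. It was found in 8 of the 28 lysosomal genes with such a promoter (28.6%) and in 2.11% of all 27025 genes with one. The promoters below show it in capitals in *Ctsa*, which rose, and in *Glb1* and *Naglu*, for β-galactosidase and N-acetylglucosaminidase, which were called higher on plain TPM, *Naglu* also with the replicate block; they are written from 5′ to 3′ on the strand of the gene. *Glb1* and *Naglu* were chosen after their values were seen.
Ctsa, chr2:164833743-164833772, plus strand: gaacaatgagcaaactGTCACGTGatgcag
Glb1, chr9:114401017-114401046, plus strand: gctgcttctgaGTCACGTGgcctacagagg
Naglu, chr11:101070008-101070037, plus strand: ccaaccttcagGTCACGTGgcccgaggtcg
Only 1 of the 8 genes with the motif was called higher, and a match is a description of the sequence and no evidence of binding. The FOXO motif GTAAACA stood in 1 of 13 promoters of the FOXO list (7.69%), that of *Txnip*, and in 3.54% of all.

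Most targets of ATF4, the transcription factor that mTORC1 and amino acid shortage both raise, fell. Of 23 targets tested 15 were called lower and none higher, with a median log2 fold change of -1.41, and the count was also 15 on plain TPM. *Atf4* itself went from 435 and 391 to 159 and 211 spike-in normalized TPM (log2 fold change -1.17 ± 0.28, SE, adjusted p = 0.012). *Mthfd2*, an enzyme of mitochondrial folate metabolism, fell from 197 and 222 to 27.5 and 37.0 (-2.68 ± 0.29, adjusted p = 2.9e-05). The 3 enzymes of serine synthesis fell in parallel. *Phgdh* was at 193 and 209 and then at 46.7 and 47.5, *Psat1* at 432 and 514 and then at 75.8 and 115, and *Psph* at 67.9 and 89.5 and then at 14.8 and 20.9. *Trib3*, a pseudokinase of the stress response, and *Nupr1*, a small chromatin protein, fell by 1.53 and 1.85 on the log2 scale. The other 8 were not called, the highest of the list being at 0.68, and among them was *Asns*, asparagine synthetase and a classical target, at 604 and 549 before and 578 and 582 after, a log2 fold change of 0.01 ± 0.26. In *Asns* the groups overlapped on the spike-in scale. On plain TPM they did not, and its 0.38 passed with the replicate block only (adjusted p = 0.046).

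Part of the genes for transport and charging of amino acids fell as well. Of 19 amino acid transporters 8 were called lower and none higher. *Slc7a5* and *Slc3a2*, the light and heavy chain of the leucine transporter, went from 216 and 241 to 75.9 and 94.1 and from 368 and 381 to 160.5 and 197 spike-in normalized TPM, and *Slc1a5*, the glutamine transporter, from 90.4 and 79.0 to 29.2 and 27.5. Of 20 cytosolic aminoacyl-tRNA synthetases, the enzymes that load amino acids on tRNAs, 10 were called lower and none higher, with a median of -0.90, and 16 were lower with the replicate block. *Yars*, *Nars* and *Aars*, for tyrosine, asparagine and alanine, had log2 fold changes of -1.45, -1.27 and -1.20. Each lay below its 0 h values in both 24 h libraries, as did 47.8% of all genes tested.

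The motif of ATF4 with its C/EBP partners, TGATGNAA on either strand, was found in 6 of 22 promoters of the ATF4 list (27.3%) and in 3 of 12 of the synthetases (25%), against 3.91% of all genes. Of the 6, 3 belong to genes called lower, and *Asns*, which was not called, is among the others. The windows below are those of 4 genes that fell, with the motif or its reverse complement in capitals; *Pycr1*, for a proline synthesis enzyme, *Chac1*, for an enzyme that degrades glutathione, and *Tars*, for threonine, were chosen after their values were seen.
Pycr1, chr11:120643833-120643862, minus strand: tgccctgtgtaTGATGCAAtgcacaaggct
Chac1, chr2:119351038-119351067, plus strand: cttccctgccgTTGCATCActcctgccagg
Nupr1, chr7:126625562-126625591, minus strand: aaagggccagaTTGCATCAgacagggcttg
Tars, chr15:11399659-11399688, minus strand: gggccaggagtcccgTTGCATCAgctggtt
All 4 share the spelling TGATGCAA, which 5 of the 22 ATF4 promoters hold (22.7%) and 0.918% of all. *Chac1* went from 42.7 and 46.2 to 8.05 and 12.0 spike-in normalized TPM, *Pycr1* from 40.2 and 39.7 to 13.3 and 15.7 and *Tars* from 273 and 269.9 to 124 and 169.

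Glycolysis held the largest fall of a protein-coding gene under the naming rule used here. *Ldha*, lactate dehydrogenase A, which turns pyruvate to lactate, went from 2092 and 2464 to 161 and 193 spike-in normalized TPM, a log2 difference of -3.68 ± 0.32 (SE, adjusted p = 3.6e-06). *Slc16a3*, the exporter of that lactate, fell from 49.0 and 50.04 to 4.02 and 5.04, and *Tpi1*, triose phosphate isomerase, from 432 and 504 to 45.1 and 66.6. The spread between replicates was small beside each of these falls. Of 26 glycolytic genes and targets of the hypoxia factor HIF, 14 were called lower and none higher (median -1.38), and 16 on plain TPM. *Slc2a1*, the glucose transporter, and *Aldoa* and *Pgk1*, enzymes further along the pathway, had log2 fold changes of -1.53, -1.79 and -1.94. *Hk2*, the hexokinase that opens the pathway, was at 333 and 323 and then 196 and 209.5, which did not pass the test (-0.69, adjusted p = 0.082) but did with the replicate block (adjusted p = 0.015).

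The fall of these genes was not of 1 kind over time. Against the same 0 h libraries, *Slc16a3* had log2 fold changes of -3.20, -0.71 and -0.16 after 24, 72 and 144 h, and *Ldha* of -3.68, -2.54 and -1.70. *Pgam1*, phosphoglycerate mutase, chosen after its values were seen, stayed at -1.85, -1.54 and -1.60. HIF and MYC both bind motifs with the core ACGTG, which lies within the lysosomal motif above. On either strand it was found in 16 of 24 promoters of the list (66.7%) and in 18.5% of all, and 10 of the 16 belong to genes called lower. The promoters of the 2 genes that fell most and of *Slc2a1* are shown with the core in capitals.
Ldha, chr7:46845745-46845774, plus strand: ggcccagcctaCACGTGggttcccgCACGT
Slc16a3, chr11:120949037-120949066, plus strand: gtgACGTGcgcgggggACGTGccgcgcgac
Slc2a1, chr4:119108697-119108726, plus strand: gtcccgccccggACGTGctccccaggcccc
The windows of *Ldha* and *Slc16a3* hold more than 1 core each, and in *Ldha* cores of both strands overlap as CACGTG.

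Most sterol genes and a part of those for fatty acid synthesis fell too. Of 24 genes of cholesterol synthesis and uptake 17 were called lower and none higher, with a median of -1.25, and 21 on plain TPM. *Idi1*, isopentenyl diphosphate isomerase, fell from 71.7 and 94.4 to 14.7 and 15.1 spike-in normalized TPM (-2.39 ± 0.32, SE, adjusted p = 0.00022), and *Dhcr7*, of the last step, from 48.1 and 69.1 to 11.8 and 13.9. Of 14 fatty acid genes 7 were called lower and none higher (median -1.04). The desaturases *Scd2*, *Scd1* and *Fads2* were the furthest down. *Scd2* went from 484 and 361 to 79.7 and 57.4, *Scd1* from 88.9 and 54.6 to 13.2 and 11.7, and *Fads2* from 67.8 and 43.4 to 8.08 and 8.09. *Fasn*, fatty acid synthase, fell by 1.51 on the log2 scale. *Srebf1*, which encodes a transcription factor of these genes, was at 42.1 and 44.4 and then 26.9 and 36.4 and was not called. In the opposite pathway *Cpt1a*, which admits fatty acids to mitochondria, rose from 36.4 and 28.2 to 62.3 and 94.3. Of 17 fatty acid oxidation genes in all 1 was called higher (5.88%, against 1.25% of all genes) and 2 lower (11.8%, against 8.73%). On plain TPM 8 were higher and 2 lower.

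The sterol motif TCACNCCAC stood in 1 of 17 promoters of the cholesterol list (5.88%) and in 1.22% of all. It is that of *Hmgcs1*, HMG-CoA synthase, which fell by 1.40 on the log2 scale and was chosen after its values were seen.
Hmgcs1, chr13:119690204-119690233, plus strand: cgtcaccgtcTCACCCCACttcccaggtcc
The absence of these letters from the other 16 windows says nothing of the factor. For NRF2, the factor of the oxidative stress response, 10 of 11 targets were called lower (median -1.32). *Nqo1*, a quinone reductase, went from 29.2 and 31.4 to 7.13 and 6.40, *Hmox1*, haem oxygenase, from 178 and 317 to 57.8 and 112, and *Prdx1*, a peroxiredoxin, from 1205 and 1377 to 404 and 519.8. In all 3 the groups did not overlap, as in this direction for 47.8% of all genes tested. Its motif TGACNNNGC was found in 4 of 8 promoters (50%) and in 11.5% of all, and that of *Prdx1* is shown as its reverse complement.
Prdx1, chr4:116685456-116685485, plus strand: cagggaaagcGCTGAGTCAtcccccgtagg
The motifs were searched in 8 pairs of motif and list, with 4 further spellings, and no share was tested.

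Nucleotide synthesis and growth metabolism completed this side of the response. Of 28 genes of nucleotide and one-carbon synthesis 17 were called lower and none higher (median -0.97), with *Tk1*, thymidine kinase, at 120.2 and 99.5 and then at 28.6 and 29.4 spike-in normalized TPM. In polyamine metabolism 5 of 10 were called lower, among them *Odc1*, ornithine decarboxylase (-1.27), *Amd1*, which supplies its aminopropyl donor (-1.58), and *Oaz1*, the inhibitor of ornithine decarboxylase (-1.39). The enzymes and their inhibitor thus fell side by side.

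Ribosomal genes split by compartment. Of 82 cytosolic ribosomal proteins 3 were called lower and none higher, and their median log2 fold change of -0.14 (0.24 on plain TPM) lay above the -0.33 of all genes. *Rpl3* and *Rps6*, of the large and small subunit, were at 2609.6 and 2832 and at 3308 and 3186 spike-in normalized TPM at 0 h and at 1957 and 2530.4 and 2639 and 3649.6 at 24 h. *Rps20* was at 805 and 802 and then at 1103 and 1529, which passed with the replicate block and on plain TPM only, where 21 of the 82 were called higher. The 3 that fell, *Rps27l*, *Rpl36al* and *Rpl22l1*, are paralogues of other ribosomal proteins, with log2 fold changes of -1.36, -0.91 and -1.22, and reads shared with their near copies can be split in ways TPM do not show.

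Of 78 mitochondrial ribosomal proteins, in contrast, 29 were called lower and none higher (median -0.81), with 57 lower under the replicate block. *Mrpl34* went from 232 and 248 to 65.5 and 76.1, *Mrps12* from 159 and 128 to 40.1 and 46.7 and *Mrpl12* from 243 and 255 to 74.6 and 93.5 spike-in normalized TPM. None of these groups overlapped, as in this direction for 47.8% of all genes tested. The nuclear-encoded respiratory chain was alike, with 30 of 73 called lower and none higher (median -0.75), and 48 lower with the block: *Uqcrq* of complex III fell by 1.66, *Cycs*, cytochrome c, by 1.56 and *Atp5k* of the ATP synthase by 1.58 on the log2 scale. Of the 13 proteins encoded by mitochondrial DNA 4 were called lower, including *mt-Nd1* (-1.21) and *mt-Nd6* (-1.57).

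Part of the factors that build ribosomes fell. Of 48 nucleolar and ribosome biogenesis genes 13 were called lower and none higher (median -0.72), and 32 were lower with the replicate block. *Nop16* went from 124 and 131 to 29.3 and 38.6 spike-in normalized TPM, and *Nop10* and *Nhp2*, which belong to the pseudouridylation particle, had log2 fold changes of -1.65 and -1.25. *Ncl*, nucleolin, was at 1761 and 1665 and then 816 and 1121, short of the threshold (-0.84, adjusted p = 0.058; with the block, adjusted p = 0.012). Of 45 translation factors 6 were called lower, or 13.3% against 8.73% of all genes, among them *Eif5a* (-1.20) and *Eef1d* (-1.20), and 22 with the block, while on plain TPM 18 were lower and 5 higher. *Eef2*, which moves the ribosome along the message, was at 2613 and 3027 and then at 3532 and 5186, so its groups did not overlap, but it was called higher on plain TPM only.

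Protein quality control was lower in its proteasomal and ER arms. Of 37 proteasome subunits 22 were called lower and none higher (median -0.93), with *Psmd14*, the deubiquitinase of the lid, going from 339.6 and 365 to 107 and 125 and *Psmb10*, an immunoproteasome subunit, from 43.8 and 56.0 to 10.9 and 12.4 spike-in normalized TPM. Of 18 genes of the unfolded protein response 10 were called lower, including *Hspa5*, the ER chaperone BiP (-1.38), *Manf* (-1.54) and *Herpud1* (-1.76). Of 23 heat shock chaperones 4 were called lower, and 12 with the block, and *Hspa8*, the constitutive one, was at 4805 and 5107 and then at 3306 and 4788, with no call on any of the scales.

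Cyclins of G1 fell. Of the mitotic genes 3.57% were called lower, against 8.73% of all genes tested, and the contrast of these sets was not tested. Of 18 G1 genes 6 were called lower and none higher (median -0.53). *Ccnd1*, cyclin D1, which carries growth signals to CDK4 and CDK6, fell from 124 and 95.7 to 21.2 and 11.8 spike-in normalized TPM (-2.71 ± 0.30, SE, adjusted p = 2.9e-05). *Ccne1*, cyclin E1, which acts at entry into S phase, fell from 392.3 and 366 to 66.8 and 63.4, and *Ccnd2* and *Ccnd3* fell by 2.24 and 1.28 on the log2 scale. All 3 D-type cyclins were thus lower at 24 h in both libraries. At later times *Ccnd1* was at -0.87 (72 h) and -0.92 (144 h) and *Ccne1* at -1.82 and -1.95. *Cdkn1b*, the CDK inhibitor p27, was at 18.03 and 21.1 and then 34.1 and 43.4 (0.94, adjusted p = 0.088; called higher on plain TPM and with the block).

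Of 33 DNA replication genes 4 were called lower (12.1%, against 8.73% of all genes). With the block 14 were, and the block called 25.7% of all genes lower. *Pcna*, the sliding clamp, went from 802 and 719 to 264 and 258, and *Cdc6*, which loads the helicase, from 94.2 and 91.7 to 31.9 and 37.1. *Mcm2*, of the helicase, was at 608 and 554 and then 364 and 469 and was not called. Of 28 mitotic genes 1 was called lower, *Birc5* or survivin (-0.84), a call that ended whichever library was left out. On plain TPM 8 were called higher and 5 lower, and with the block 6 lower. *Cdk1*, the mitotic kinase, was at 206 and 200.4 and then 159 and 208. Of 69 replication-dependent histone genes 11 were called lower (15.9%, against 8.73% of all genes) and none higher. On plain TPM 12 were lower and 7 higher, and with the block 23 were lower. Members of these families are near copies of each other, so the division of reads among them is uncertain.

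**Figure D3:**
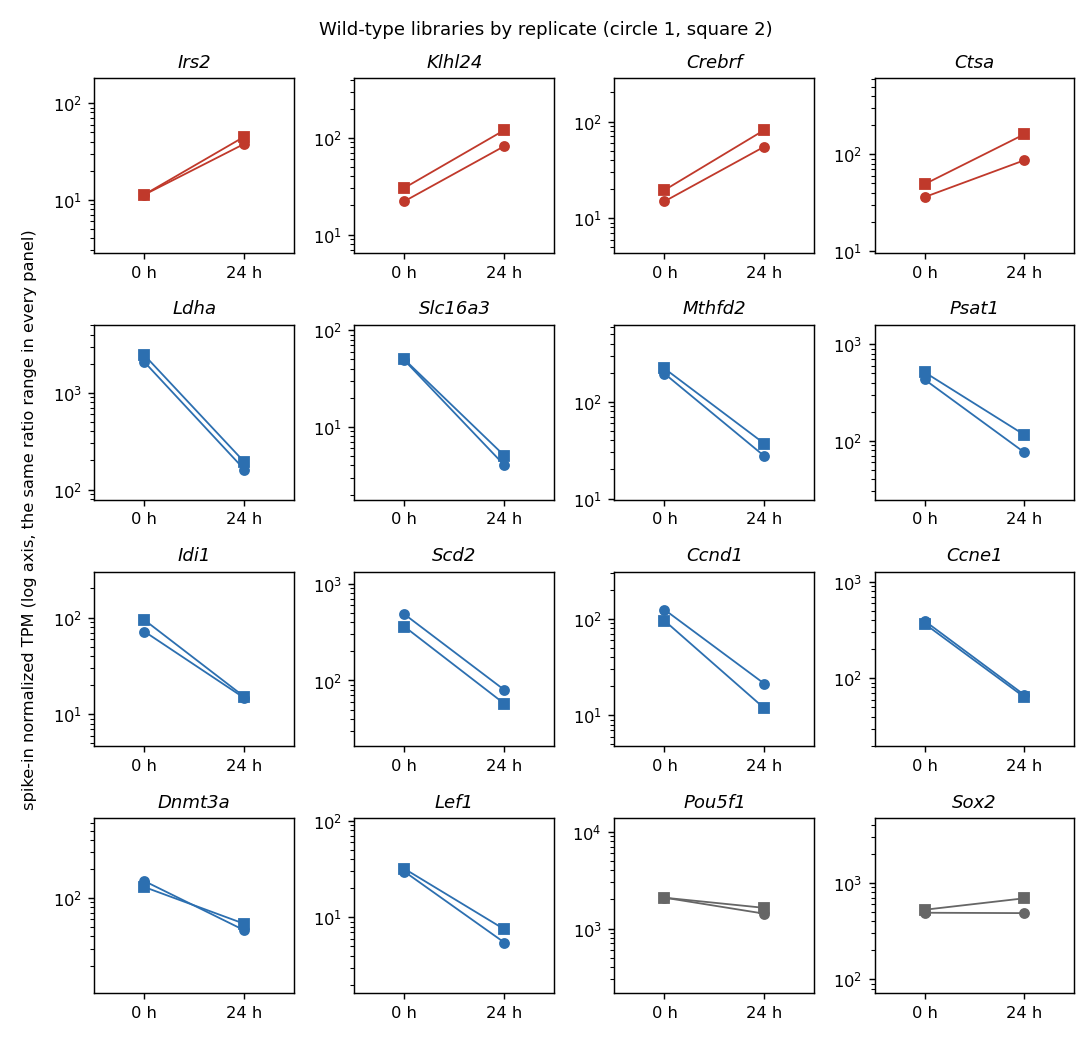
Spike-in normalized TPM (log axis, vertical, with the same ratio range in every panel) of 16 genes in the wild-type libraries at 0 h and 24 h (horizontal axis); a line joins the libraries of a replicate, red marks genes called higher, blue lower and grey not called. *Ldha* falls from 2092 and 2464 to 161 and 193, *Irs2* rises from 11.3 in each library to 37.9 and 44.9, and *Pou5f1* and *Sox2* were not called.

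Few changes were called in the core of the pluripotency network. Of 24 genes of core and naive pluripotency limma called none in either direction, with a median of -0.21 (0.16 on plain TPM, where 6 were called higher and 2 lower). With the replicate block 2 were called higher and 4 lower. *Pou5f1*, which encodes OCT4, was at 2085 in each 0 h library and at 1423 and 1635 at 24 h (-0.45 ± 0.27, SE, adjusted p = 0.30), *Sox2*, called higher on plain TPM only, at 489 and 525 and then 484 and 690.1, and *Nanog* at 680.3 and 727 and then 395 and 558. *Pou5f1* and *Nanog* were not called on plain TPM or with the replicate block either. *Klf4*, a naive factor downstream of LIF, was at 140.2 and 151 and then 260.2 and 369, apart in both libraries yet short of the threshold (1.08, adjusted p = 0.063), and was called higher on plain TPM and with the block (adjusted p = 0.0012). The 6 ES cell markers summed to 8580 and 10303 at 0 h and to 5875 and 7362 at 24 h, and none of them was called.

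Both de novo DNA methyltransferases fell. *Dnmt3a* and *Dnmt3b* went from 149.8 and 129.9 to 46.3 and 54.1 and from 276 and 404 to 149 and 191 spike-in normalized TPM (-1.46, adjusted p = 0.011, and -0.98, adjusted p = 0.036). *Uhrf1*, which brings the maintenance enzyme to replicated DNA, fell from 633 and 553 to 265 and 279. These were the 3 calls among 12 genes of the list, whose median of -0.35 was near that of all genes, and 5 were called lower with the replicate block. With 1 library left out, the calls of *Dnmt3a* and *Uhrf1* ended in 3 of the 4 cases, and that of *Dnmt3b* in all 4. *Tet1* and *Tet2*, of the enzymes that oxidize methylcytosine, were at 416 and 403 and at 210.4 and 203 at 0 h and at 393 and 472 and at 165 and 203 at 24 h, with no call, though *Tet1* was called higher on plain TPM (0.44).

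Calls among signalling genes of the ES cell state differed by list. *Dusp4*, a phosphatase of ERK, rose from 19.0 and 21.0 to 65.1 and 88.1 spike-in normalized TPM (1.87 ± 0.28, SE, adjusted p = 0.00067), while *Ier3*, an immediate early gene, fell by 1.22, and these were the only calls among 16 genes of FGF and ERK feedback on the spike-in scale, while on plain TPM 7 were called higher and 1 lower. Of 11 genes of Nodal and BMP signalling 4 were called lower (36.4%, against 8.73% of all genes), and on plain TPM 3 lower and 2 higher. *Lefty1* and *Lefty2*, targets and antagonists of Nodal, went from 52.4 and 121 to 10.2 and 33.1 and from 61.4 and 85.7 to 12.6 and 16.2, and *Id1*, a BMP target, from 94.0 and 209 to 24.2 and 46.8. Replicate 2 was the higher at both times for *Lefty1* and *Id1*. In all 3 genes the groups did not overlap, as in this direction for 47.8% of all genes tested. *Lef1*, a TCF factor of Wnt signalling, fell from 29.6 and 31.7 to 5.45 and 7.48, the only call of 8 Wnt genes. Its log2 fold change was -2.10 at 24 h and 0.99 and 1.04 at 72 and 144 h, and that of *Lefty2* was -2.26, -0.29 and 0.72.

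Genes of some rare states of the culture were called lower. Of 12 genes of the 2-cell-like state 7 were called lower and none higher (median -1.66). *Zscan4d* went from 26.7 and 51.6 to 5.18 and 9.89 and *Zscan4f* from 63.2 and 130.2 to 16.8 and 30.2 spike-in normalized TPM. These genes lie in families of near-identical copies, so the values of single members are uncertain. Of 6 neural progenitor genes 4 were called lower, *Nes*, *Sox3* and *Tubb3* among them with -1.62, -1.93 and -1.83, and the neural markers *Pax6* and *Sox1* together summed to 11.3 and 16.2 at 0 h and 5.84 and 6.84 at 24 h, neither being called, although *Pax6* was with the replicate block (adjusted p = 0.0058). Of 17 germline genes, many of which are silenced by DNA methylation, 1 was called higher, *Taf7l*, from 3.96 and 5.50 to 16.6 and 22.4, against 7 on plain TPM and 5 with the block. Fibroblast markers were near 0, with 6 of 7 below 1 plain TPM in all 4 libraries, and *Thy1*, the other, fell from 16.03 and 10.7 to 3.69 and 2.09. The 4 trophectoderm markers fixed for this check summed to 15.4 and 19.6 and then 15.1 and 22.0. The 11 trophectoderm genes tested had a median of 0.23 and plain TPM that summed to 66.8 and 90.4 and then 176 and 117, with no call in limma without the block, and 3 higher and 1 lower with it.

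Part of the primitive endoderm genes rose. This lineage is the other derivative of the inner cell mass; it forms from cells that turn on GATA6, and it lays down a basement membrane of laminin and collagen IV. Of 17 genes of the list tested 8 were called higher and none lower, with a median log2 fold change of 1.74, and the count was 15 on plain TPM and 14 with the replicate block. In 16 of the 17 both 24 h libraries lay above the 0 h libraries, against 12.1% of all genes.

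The lineage factors came from low levels. *Gata6* was at 3.61 and 9.51 spike-in normalized TPM at 0 h and at 17.7 and 52.1 at 24 h (2.18 ± 0.68, SE, adjusted p = 0.046). *Gata4* was at 4.004 and 12.5 and then at 25.3 and 58.6 (2.27 ± 0.69, adjusted p = 0.040), and *Sox17*, which acts after them, at 3.27 and 3.99 and then at 17.3 and 22.3 (2.16 ± 0.48, adjusted p = 0.0078). *Foxa2*, a factor of endoderm in general, rose from 1.24 and 1.98 to 7.48 and 5.81. With 1 library left out, the call ended in 3 of the 4 cases for *Gata6*, in 2 for *Gata4* and *Foxa2* and in 1 for *Sox17*, and the fit with the replicate block called all 4 genes. Replicate 2 was above replicate 1 at both times for *Gata6*, *Gata4* and *Sox17*, and within each replicate the rise was several-fold. *Sox7* and *Pdgfra*, the other markers of the lineage fixed for this check, were at 2.69 and 7.10 and then 11.8 and 20.3 (adjusted p = 0.052) and at 3.07 and 10.8 and then 15.1 and 56.1 (adjusted p = 0.076), and both were called higher with the replicate block. *Dab2*, an endocytic adaptor chosen after its values were seen, stood alike, at 1.94 with an adjusted p of 0.052.

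The matrix genes were more abundant and varied less. *Lama1*, laminin α1, went from 82.1 and 113 to 450.1 and 407 spike-in normalized TPM (2.14 ± 0.35, SE, adjusted p = 0.00097). *Col4a1* went from 97.2 and 92.7 to 390.3 and 261, and *Col4a2*, its partner chain and head-to-head neighbour, from 35.1 and 40.8 to 207 and 159.9. *Lamb1*, laminin β1, chosen after its values were seen, had a log2 fold change of 1.39. For none of them did the groups overlap, and *Lama1*, *Col4a1* and *Col4a2* kept their calls whichever library was left out. *Sparc*, a secreted protein of the same matrix, likewise chosen after its values were seen, was at 357 and 396 and then at 627 and 649.7 and did not pass the test (0.76, adjusted p = 0.062), but did with the block (adjusted p = 0.0085) and on plain TPM.

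**Figure D4:**
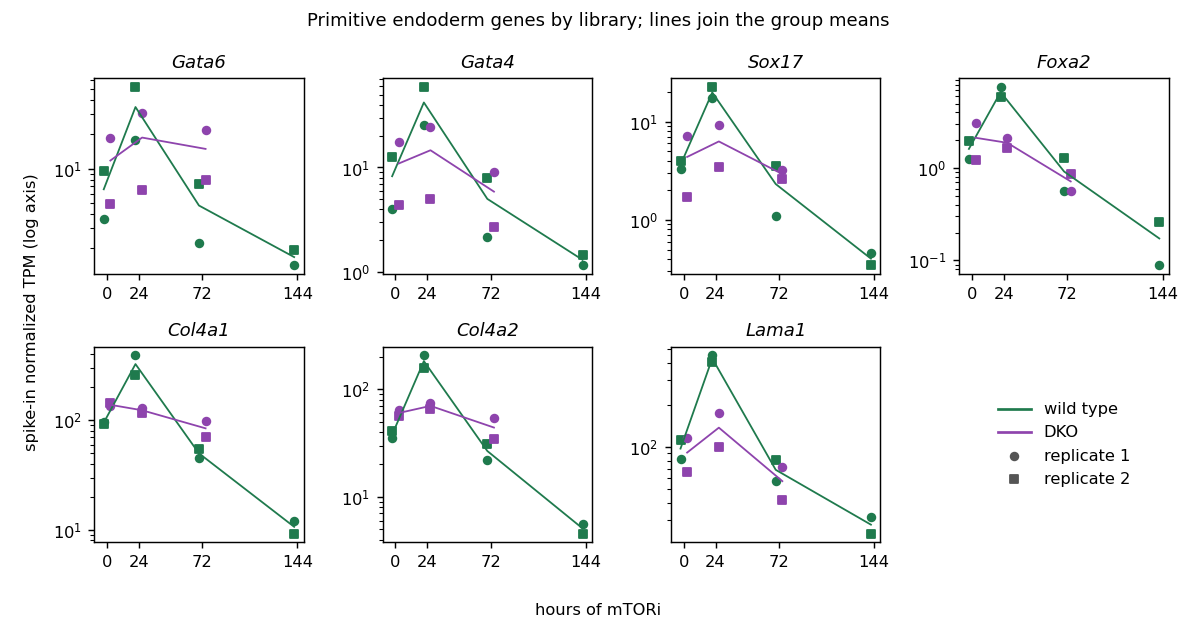
Spike-in normalized TPM (log axis) of 7 primitive endoderm genes against hours of mTORi, in wild-type and DKO libraries; points are libraries, circles replicate 1 and squares replicate 2, and lines join group means. In wild type each gene is highest at 24 h and is lower again at 72 and 144 h.

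The rise was not seen at 72 h. Spike-in normalized TPM summed over the 17 genes were 806 and 1060 in untreated cells, 2336 and 2352 after 24 h, 526 and 646 after 72 h, and 248 and 206 after 144 h. At 72 h 2 of the 17 genes were called lower than at 0 h and none higher, and in plain TPM the sums of 318 and 433 overlapped the 382 and 502 of untreated cells. *Col4a1* stood, against the shared 0 h libraries, at log2 fold changes of 1.74, -0.92 and -3.05 at the 3 times and *Gata4* at 2.27, -0.64 and -1.84. Over the 5 marker genes the sum was 16.6 and 43.9 at 0 h and 87.2 and 209 at 24 h, beside 5875 and 7362 for the ES cell markers in the latter. Mesendoderm markers stayed at sums of 2.43 and 3.95 and then 2.16 and 4.37, with *T*, *Mixl1* and *Gsc* low at both times. The GATA motif AGATAA was found in 2 of 11 promoters of the list (18.2%) and in 11.4% of all.

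Most of the largest single rises were also gone by 72 h. Under the rule of naming, the 10 largest were *Hkdc1*, *Adh1*, *Srgn*, *Nostrin*, *Hs3st1*, *Foxq1*, *Klhdc7a*, *P2rx7*, *Gata4* and *Col4a2*. *Hkdc1*, a hexokinase-like enzyme, went from 1.03 and 0.695 to 8.06 and 16.9 spike-in normalized TPM (2.78 ± 0.46, SE, adjusted p = 0.0011). *Srgn*, the core protein of a secretory proteoglycan, rose from 6.72 and 21.1 to 61.7 and 107, and *Nostrin*, an adaptor of endocytosis, from 2.92 and 7.85 to 22.3 and 57.7. *Hs3st1*, a heparan sulfate sulfotransferase, rose from 2.82 and 4.61 to 30.3 and 22.1. At 72 h these 4 were at -0.19, -0.30, -0.50 and -0.41 against 0 h. *P2rx7*, an ATP-gated channel, was the exception among the 10 in still being at 1.13 at 72 h and 0.63 at 144 h. The primitive endoderm sums above move with these rises, and their part in the result was not tested.

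Part of the microRNA cluster of ES cells rose in its turn. The miR-290 to miR-295 cluster is a group of hairpins cut from 1 primary transcript on chromosome 7, and its main products promote the rapid G1 passage of ES cells. The mature 3p strands of the members with values given here are printed below from RefSeq on GRCm38.p6, plus strand, with the seed, bases 2 to 8, in capitals.
mmu-miR-291a-3p, chr7:3218968-3218989: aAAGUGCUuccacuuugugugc
mmu-miR-294-3p, chr7:3220691-3220712: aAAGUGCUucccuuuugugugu
mmu-miR-295-3p, chr7:3220815-3220837: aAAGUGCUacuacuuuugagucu
mmu-miR-291b-3p, chr7:3219529-3219550: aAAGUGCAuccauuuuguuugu
The first 3 share the seed AAGUGCU, and that of miR-291b-3p differs from it in its last base.

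Of 7 hairpin genes tested 4 were called higher and none lower, with a median of 1.76, and 6 with the replicate block. *Mir291a* went from 7.02 and 7.41 to 33.5 and 74.9 spike-in normalized TPM (2.64 ± 0.51, SE, adjusted p = 0.0034), *Mir291b* from 87.9 and 84.4 to 215 and 307 and *Mir295* from 24.2 and 23.3 to 64.4 and 127. *Mir294* was at 15.1 and 20.5 and then 38.8 and 99.2 (adjusted p = 0.071, and 0.00081 with the block). At 24 h replicate 2 was well above replicate 1 in *Mir291a*, *Mir294* and *Mir295*, and both lay above 0 h. The hairpin entries named here span 69 to 84 bp, and the libraries were made from total RNA with no selection for small RNA, so the values are those of reads on the hairpin region and not of mature microRNA. In contrast to the primitive endoderm genes, *Mir291a* stayed up, with log2 fold changes of 2.64, 2.73 and 2.88 at 24, 72 and 144 h.

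The largest falls outside the lists above were of genes at low to moderate level. *Gap43*, a growth cone protein, went from 24.4 and 17.1 to 1.06 and 1.03 spike-in normalized TPM, *Slfn9*, of the Schlafen family, from 24.1 and 20.3 to 1.19 and 1.52, and *Cbr3*, a carbonyl reductase, from 17.2 and 33.1 to 1.40 and 1.89. *Fgf15*, a growth factor of the early epiblast, fell from 14.3 and 18.4 to 0.947 and 0.948 and was back at a log2 fold change of -0.06 by 144 h. *Calca*, the calcitonin gene, and *Krt17*, a keratin, were at -3.00 and -2.97. *mt-Rnr1*, the mitochondrial 12S rRNA, had the largest value of all, -5.18 ± 1.47, from 155 and 396 to 3.23 and 10.1, but it is a target of the rRNA depletion and was not called on plain TPM (adjusted p = 0.074).

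The genotypes were compared by the difference of their responses, DKO minus wild type. At 24 h against 0 h this difference passed the test in 1 of 18232 genes (0.00548%), and in 223 at an unadjusted p under 0.05. That gene was *Nupr1*, the ATF4 target shown above, which fell from 40.8 and 44.2 to 7.20 and 16.7 spike-in normalized TPM in wild type, with a log2 fold change of -1.85 there and -5.75 in DKO (difference -3.90, adjusted p = 0.035). With the replicate block 17 genes passed (0.0932%), 9 with a higher and 8 with a lower response in DKO. The former include *mt-Rnr1* (difference 5.83) and the latter *Nupr1*, *Chac1*, *Col4a1* and *Col4a2*. On plain TPM limma called none, with 706 at an unadjusted p under 0.05, and with the block on plain TPM it called 1, *Kdelr3*, a receptor that returns proteins to the ER, named after its values were seen (difference -1.55, adjusted p = 0.027).

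**Figure D5:**
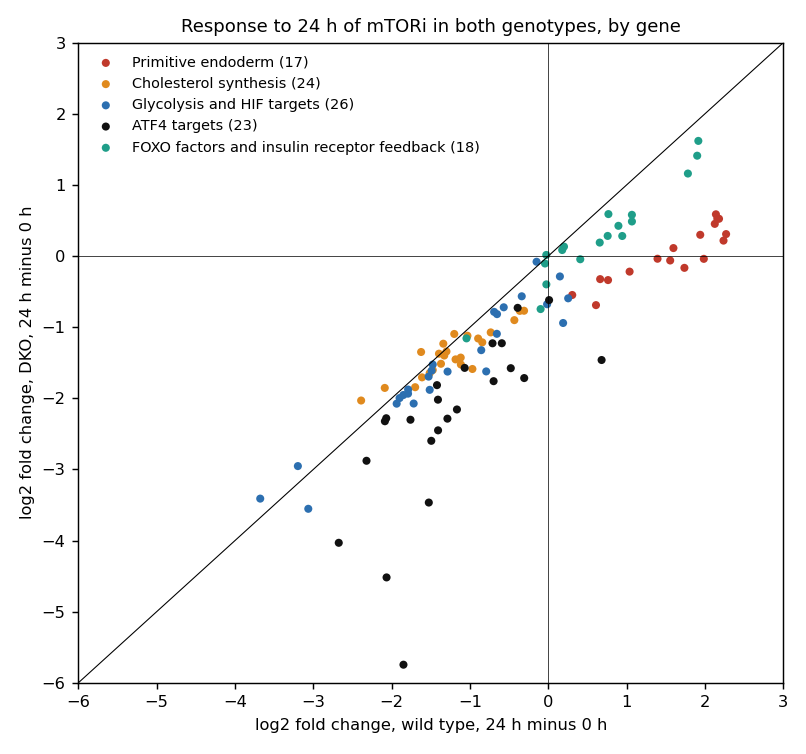
Log2 fold change of spike-in normalized TPM at 24 h against 0 h in DKO (vertical axis) and wild type (horizontal axis) for the genes of 5 lists, with the number of genes in brackets; the diagonal marks equal responses. Most primitive endoderm genes lie below the diagonal, as would 75.3% of all genes tested. The list medians are 1.74 in wild type and -0.04 in DKO, against -0.33 and -0.49 over all genes, and *Nupr1* is the lowest point.

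The primitive endoderm genes had a lower median response in DKO than in wild type, but the difference itself did not pass the test for any of those named here, and with the block it did for *Col4a1* and *Col4a2* on the spike-in scale only. *Col4a1* and *Col4a2* had log2 fold changes of -0.17 and 0.22 in DKO against 1.74 and 2.24 in wild type. The differences were -1.90 and -2.02, with adjusted p of 0.60 for each, of 0.0165 for each with the block and of 0.446 for each with the block on plain TPM. For *Gata6*, *Gata4* and *Sox17* they were -1.66, -1.96 and -1.63, with adjusted p of 1.0. The DKO sums over the 17 genes, in spike-in normalized TPM, stood at 1283 and 980 before treatment and at 1268 and 828 after it, so the DKO libraries overlapped between the times, while the wild-type libraries did not. In plain TPM the DKO sums were 456 and 413 before and 567 and 610 after, without overlap, beside 382 and 502 and then 1629 and 1269 in wild type. Of the other lists in the plot of both genotypes, ATF4 targets had medians of -1.41 in wild type and -2.16 in DKO, with *Mthfd2* at -2.68 and -4.03 and *Chac1* at -2.06 and -4.52, differences that did not pass the test (adjusted p of 1.0 and 0.89), though that of *Chac1* did with the block. *Ldha* was at -3.68 in wild type and -3.41 in DKO, and *Idi1* at -2.39 and -2.03. Over all genes tested the medians were -0.33 in wild type and -0.49 in DKO. The response was the lower one in DKO for 75.3% of all genes, and for 52.3% on plain TPM.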

How the data were processed

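RNA-seq libraries were made by the authors from total RNA of sorted cells with ERCC spike-in and ribosomal RNA depletion, trimmed with cutadapt 2.4, aligned to mm10 with STAR 2.7.3a and quantified with StringTie 2.0. These versions are per the submitters' processing notes, and the study's methods name later releases of STAR and StringTie, with GENCODE VM19 as annotation. The deposited values are TPM per transcript. They were summed per gene and multiplied by the spike-in factor of each library, taken as the median ratio of the study's normalized table to the deposited TPM. The 18232 genes (of 38890 above 0) that averaged 1 or more on this scale across all 14 libraries were fitted with limma 3.58.1 (R 4.3.3) on log2(value + 1), two-sided, with a mean-variance trend and all 7 groups of 2 sharing 1 estimate of the spread, which leaves 7 residual degrees of freedom. In data simulated for wild type at 24 h against 0 h over 18232 genes, 200 of the more abundant genes were changed. The fit called 10% of them at a log2 change of 1, 97% at 2 and 100% at 3. In the data themselves 1819 genes were called, which makes the adjusted threshold less strict, so these shares are no estimate for this comparison. A gene that is not called may still have changed by 1 on this scale.

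The study names 2 biological replicates and states that the time points of a replicate were processed in parallel. Same-numbered wild-type libraries at 0 h and 24 h deviated together (correlation of replicate differences 0.399 across genes, which are not independent), so fits with the replicate as a block (5 residual degrees of freedom) are given where they alter a call. Replicates of wild type correlated at 0.984 (0 h) and 0.985 (24 h), with an SD of their log2 difference of 0.435 and 0.396, and no pair was a duplicate.

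Named genes are the 10 largest rises and falls called (at least 200 bp, a mean of at least 5 in the higher group, no overlap, the same direction in plain TPM), the first 3 and up to 4 further members of smallest p of each of 48 lists, genes that responded differently in DKO (up to 5) and the 5 genes of highest TPM. Others are said to be chosen after their values were seen. Some items under this rule are not reported here. The samples and lists were chosen with earlier results of these data known. Promoters and microRNAs are from RefSeq on GRCm38.p6, the assembly that mm10 is named after. Alternatives tried were scaling, pseudocount, filter, samples in the fit, trend, replicate block and leaving out each library. The deposited files hold no read counts, so no count model could be fitted.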

Additional observations from a re-analysis of the deposited data

How the results depend on the processing

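Counts at 24 h moved with the scale, with the spread and with single libraries. Genes called higher and lower numbered 2883 and 2563 on plain TPM, 2484 and 3122 after centring each library on its median gene, 817 and 4693 with the replicate block, 3524 and 3231 with the block on plain TPM, and 520 and 3610 when only the compared groups were fitted. Without a filter 910 genes were called lower. Leaving out 1 library gave 59 to 465 genes higher and 266 to 3140 lower; without replicate 1 of 24 h they were 120 and 266, without replicate 2 of 24 h 80 and 1074, without replicate 1 of 0 h 59 and 569, without replicate 2 of 0 h 69 and 288, and without either DKO 24 h library 465 and 3140 or 463 and 3133. The genes whose response differed in DKO were 1 in number; they were 0 on plain TPM, after centring and with a pseudocount of 0.1 or 5, 11 with no filter, 2 with the compared groups only, 17 with the replicate block and 0 to 7 when 1 library was left out. The cause of these changes was not tested. Fewer libraries leave fewer degrees of freedom, while the counts rose when either DKO 24 h library was left out. All 7 groups share 1 estimate of the spread, so calls in wild type also depend on libraries outside the comparison. In the DKO 24 h libraries replicate 2 minus replicate 1 had a median of -0.72 on the log2 scale. Of the 127 named genes called, 127 kept their call with the replicate block and with only the compared groups, and 126 on plain TPM and after centring, *mt-Rnr1* being the exception in both. Without a filter 48 lost it. Leaving out replicate 1 or 2 of 0 h ended 45 and 56 of these calls, and replicate 1 or 2 of 24 h 50 and 27. Of the 34 named genes not called, the block called 14. None of the genes called changed sign. Uncalled genes that did were, on plain TPM with and without the replicate block, *Cdk1* (0.21), *Hspa8* (0.06), *Rpl3* (0.08), *Rps6* (0.31) and *Tet2* (0.20), and after centring *Cdk1* (0.11), *Rps6* (0.20) and *Tet2* (0.10). With 1 library left out, *Asns* ranged from -0.06 to 0.08, *Cdk1* from -0.35 to 0.03, *Lamp1* from -0.02 to 0.83, *Rps6* from -0.30 to 0.17, *Sox2* from -0.06 to 0.45 and *Tet1* from -0.06 to 0.20. The ratio of mean spike-in normalized TPM ranged from 0.679 to 0.878. With 2 libraries a group, and depth unknown, small changes cannot be resolved. In the simulation with 200 changed genes, 10% of log2 changes of 1 were called.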

Other observations

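Calls of the remaining gene lists, and of some touched on above, are given here from the limma fit of 24 h against 0 h in wild type. In the BCL2 family, which sets the threshold of apoptosis, 1 of 13 genes was called higher (7.69%, against 1.25% of all genes) and 2 lower (15.4%, against 8.73%). On plain TPM the counts were 5 and 3, and with the replicate block 3 and 4. *Bmf*, a BH3-only protein released from the cytoskeleton, went from 11.3 and 13.2 to 26.5 and 30.6 spike-in normalized TPM (log2 fold change 1.16, adjusted p = 0.028). *Bak1* and *Bad*, which promote apoptosis as *Bmf* does, fell by 1.10 and 1.17 on the log2 scale. The calls of *Bmf*, *Bak1* and *Bad* are among those named above as lost with any library left out. Of 14 p53 targets none was called in either direction, although 3 were called lower and 1 higher on plain TPM and 4 lower with the block. Of 10 genes of formative and primed pluripotency 3 were called lower (30%, against 8.73% of all genes) and none higher. *Lef1*, the call among the Wnt genes above, is 1 of the 3. The V-ATPase, the proton pump of the lysosome, had 1 of 16 subunits called lower and 7 called higher on plain TPM. Of 12 genes of the MYC network 1 was called lower, and 4 with the block. Of 6 interferon-stimulated genes 1 was called lower, against none on plain TPM and 2 with the block. None of 8 genes of LIF signalling was called, but 3 were called higher on plain TPM and 2 lower with the block. None of 11 trophectoderm genes was called, but 2 were called higher on plain TPM. Of 3 mesendoderm genes tested the 1 called higher was *Foxa2*, and of 4 fibroblast genes tested the 1 called lower was *Thy1*.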
